A study of Mus musculus with 16 samples.

Results

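Osgin1, Srxn1, Abcc2 and Gsta3 are 4 genes of oxidative stress defence and detoxification, out of 2247 genes that the expression tables of the series list. They were chosen by name because their newly made RNA was far lower in K1 erythroblasts that carried an active KLF1 or Nan-KLF1 fusion than in parental K1 cells. Their falls in the cell lines are therefore a description here, and no test of them is offered. All 4 have a row in the table of 4-thiouridine (4sU) RNA, which lists 1556 genes. Srxn1 and Gsta3 also have a row in the fetal liver table, which lists 793 genes, and there they stood higher and not lower in the mutant.

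The series compared KLF1, the zinc finger activator of red cell genes, with Nan-KLF1, a mutant form with a changed residue in its DNA-binding zinc fingers. K1-ER cells are K1 cells (mouse erythroblasts without KLF1) that carry KLF1 fused to a tamoxifen-responsive oestrogen receptor domain, K1-NanER cells carry the same fusion of Nan-KLF1, and K1 cells are the parental line with neither, so all 3 groups lack the endogenous factor. Per the labels, cells of all 3 groups received 4-hydroxytamoxifen at 200 nM, and new RNA was labelled with 4sU at 500 uM for 1 h, with 2 libraries per group; the table's header names tamoxifen for K1-ER and for K1-NanER but not for K1. The K1-ER libraries came from different clones, and so did the K1-NanER libraries, so each value also carries what sets those clones apart. Fetal livers were Nan/+ (1 Nan allele of Klf1) or wild type, both from embryonic day 14.5, with 3 libraries per group of polyadenylated RNA of the whole organ after removal of globin RNA. Binding of each fusion was mapped by sequencing after chromatin immunoprecipitation (ChIP) with an antibody to KLF1, in cells given tamoxifen for 3 h, with 1 ChIP library and 1 input library per factor, each made from 3 pooled replicates. Expression is given in FPKM as deposited (fragments scaled to transcript length and to the size of the library), with 1 value per group, so no spread between replicates stands beside any value, and the depth is unknown. A level of 0.1 FPKM in the 4sU table is taken to be the value given to a gene without signal. This is inferred from the values, and the level is called the floor here. It is not a strict minimum, since Cyp2s1 stood at 0.0279 FPKM in K1-NanER. Levels at or below 0.1 FPKM are counted as at the floor.

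The 4 genes act at different steps of the same defence. In unstressed cells the adaptor KEAP1 marks the transcription factor NRF2 (gene Nfe2l2) for degradation; when oxidants or electrophiles modify KEAP1, NRF2 accumulates, pairs with small MAF proteins and binds antioxidant response elements beside its targets. The erythroid factor NF-E2 (its large subunit is the product of Nfe2) also pairs with small MAF proteins and binds closely related elements, and BACH1 represses through them. Srxn1 encodes sulfiredoxin, which restores peroxiredoxins that have been over-oxidised by peroxide. Gsta3 encodes an alpha-class glutathione transferase, which joins glutathione to reactive compounds. Abcc2 encodes the efflux pump MRP2, which exports glutathione and glucuronide conjugates, and in liver moves them into bile. Osgin1 encodes an oxidative stress induced growth inhibitor and is itself a known NRF2 target. In erythroblasts such defences meet the oxidants that come with heme and iron.

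The 250 bases before the start site of each gene are shown because binding of Nan-KLF1 was listed at 1 of these promoters and because the antioxidant response element can be looked for in them. They are from RefSeq, build GRCm38.p6, all on the plus strand, and the windows were matched by symbol for 4 of 4 genes. They lie at chr8:119436897-119437146 for Osgin1, chr2:152105274-152105523 for Srxn1, chr19:43782058-43782307 for Abcc2 and chr1:21240335-21240584 for Gsta3. Capitals mark, on either strand, the letters CCCTGCCC, TGANTCA, TGAGTCAGC and TGACNNNGC.
Osgin1: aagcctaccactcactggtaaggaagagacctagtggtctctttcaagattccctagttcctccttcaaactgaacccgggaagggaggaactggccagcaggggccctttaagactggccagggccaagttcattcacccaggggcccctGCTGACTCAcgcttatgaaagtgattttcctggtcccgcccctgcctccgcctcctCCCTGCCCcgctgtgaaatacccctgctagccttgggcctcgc
Srxn1: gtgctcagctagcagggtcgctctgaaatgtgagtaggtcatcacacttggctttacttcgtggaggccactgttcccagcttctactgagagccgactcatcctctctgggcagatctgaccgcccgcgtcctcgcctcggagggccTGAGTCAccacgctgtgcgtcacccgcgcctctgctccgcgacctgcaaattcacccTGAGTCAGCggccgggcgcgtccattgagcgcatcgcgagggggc
Abcc2: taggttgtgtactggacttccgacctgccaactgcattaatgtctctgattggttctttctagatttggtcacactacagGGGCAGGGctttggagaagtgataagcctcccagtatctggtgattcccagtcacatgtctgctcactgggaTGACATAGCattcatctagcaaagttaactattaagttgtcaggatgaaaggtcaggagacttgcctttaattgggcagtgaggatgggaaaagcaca
Gsta3: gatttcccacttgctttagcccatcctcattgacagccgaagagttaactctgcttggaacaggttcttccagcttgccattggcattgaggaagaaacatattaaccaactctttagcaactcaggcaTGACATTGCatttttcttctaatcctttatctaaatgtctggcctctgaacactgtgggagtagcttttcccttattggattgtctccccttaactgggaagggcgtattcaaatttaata
CCCTGCCC is the central motif that the authors give the peak at Osgin1. TGACNNNGC is the core of the antioxidant response element. TGANTCA is the core that elements of NF-E2, MAF and AP-1 share, and TGAGTCAGC is a longer form of it, which overlaps it.

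In these windows the Osgin1 and Srxn1 promoters shared letters that those of Abcc2 and Gsta3 lacked. TGAGTCAGC lay 99 to 91 bases before the start of Osgin1, on the minus strand, and 45 to 37 bases before the start of Srxn1, on the plus strand. Srxn1 held a further TGANTCA at 102 to 96 bases before its start. Neither form was found in the windows of Abcc2 and Gsta3. Among all 32851 promoter windows of 300 bases (250 before to 50 after a start), TGANTCA was in 7.81% and TGAGTCAGC in 0.414%, counting both strands. These 2 strings were searched after the sequences had been seen. The form TGACNNNGC, found in 12.4% of all windows, was in 3 of the 4. It lay in Abcc2 at 98 to 90 and in Gsta3 at 121 to 113 bases before the start, both on the plus strand. In Srxn1 it lay on the minus strand after the start, outside the bases printed. Osgin1 lacked this form but held TGAGTCAGC, so it is not shown to lack such an element. CACCC, the core of the KLF1 box, was found in Osgin1 and Srxn1 and is common, with 57.5% of all windows holding it, while the wider box CCNCNCCC (49.5% of windows) was found in Srxn1 only. Letters in a window are a description and do not show that a factor binds there.

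Osgin1 was the most abundant of the 4 in parental cells and stayed detectable in both lines. It stood at 17.9 FPKM in K1-ER, 8.43 FPKM in K1-NanER and 145 FPKM in parental cells, in the authors' deposited table. The level was thus 8.08-fold lower in K1-ER and 17.2-fold lower in K1-NanER, with deposited log2 fold changes of -3.01 for K1-ER and -4.10 for K1-NanER, as the authors' deposited table has them. Of the genes listed, 95.4% had a lower level in K1 than Osgin1. The gene lies on chromosome 8, 121961062 to 121970156, in build mm9. In K1-NanER it held place 10 among the 441 called falls ranked by size, and in K1-ER place 32 among 179. Of these falls, 7 in K1-NanER and 25 in K1-ER ended at the floor, which sets their sizes. The places are thus rough, and they rank the gene on the values by which it was chosen. K1-NanER was below K1-ER here, a difference that was not tested.

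Srxn1 kept less in K1-ER than in K1-NanER, the reverse of the order for Osgin1. It stood at 4.49 FPKM with KLF1-ER, 11.4 FPKM with Nan-KLF1-ER and 84.2 FPKM in the parental line, in the authors' deposited table. That is 18.8-fold lower in K1-ER and 7.40-fold lower in K1-NanER, with deposited log2 fold changes of -4.23 for K1-ER and -2.89 for K1-NanER in the authors' deposited table. For Srxn1 the level in K1-NanER was 2.54 times that in K1-ER, while for Osgin1 the level in K1-ER was 2.13 times that in K1-NanER. The table holds no test of the lines against each other, and with 1 value per group this contrast has no error. Srxn1 lies on chromosome 2, 151931260 to 151937112, in mm9.

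Abcc2 and Gsta3 started from low levels and were near or at the floor in both lines. Abcc2 stood at 0.332 FPKM in K1-ER cells, 0.285 FPKM in K1-NanER cells and 6.67 FPKM in parental K1 cells, in the authors' deposited table. Its deposited log2 fold changes in the authors' deposited table were -4.33 for K1-ER and -4.55 for K1-NanER, and both of its levels in the lines lie close to the floor. The efflux pump gene lies on chromosome 19, 43856798 to 43912708, in mm9. Both lines had Gsta3 at the floor of 0.1 FPKM, and parental cells had 3.18 FPKM, in the authors' deposited table. Its deposited fold change is set by the floor and is not used as a size. In all, 8 genes of the table were at the floor in both lines. Gsta3 lies on chromosome 1, 21230670 to 21255640, in mm9; the alpha-class glutathione transferase genes are near copies of each other, and how reads shared between them were counted is not given in the sources used here.

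**Figure D1:**
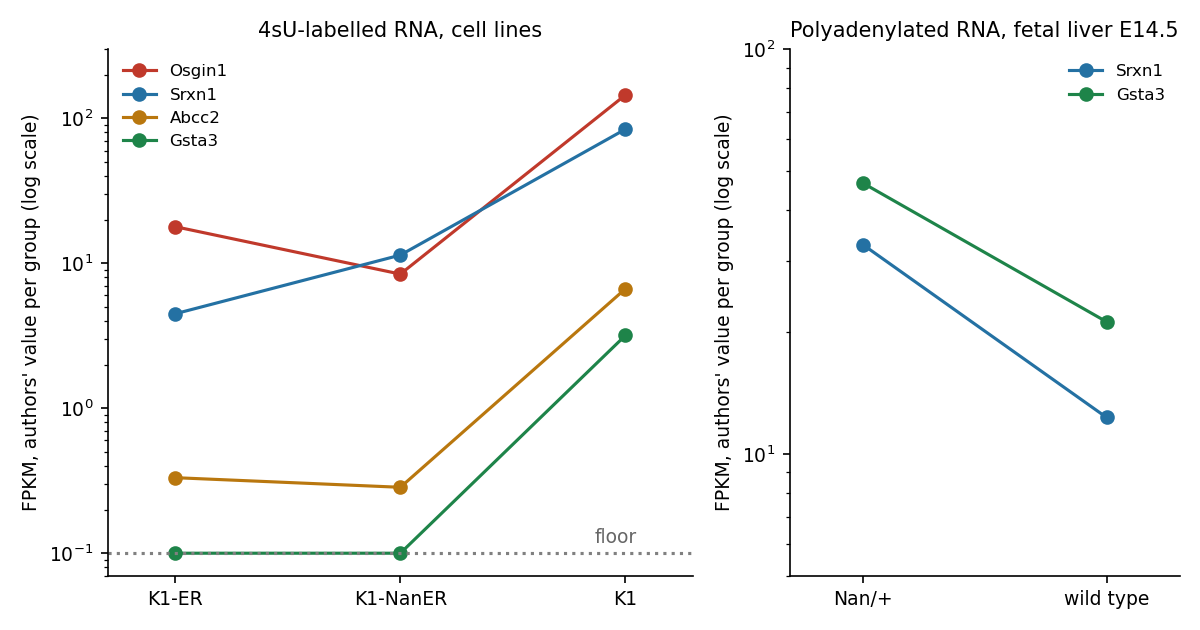
Levels of the 4 genes as FPKM on a log axis, 1 authors' value per group with no replicate values, in 4sU RNA of the K1-ER line, the K1-NanER line and parental cells (left; the dotted line is the floor of 0.1 FPKM) and in fetal liver of Nan/+ and wild type (right, Srxn1 and Gsta3). All 4 genes were higher in K1 than in either line, and both liver genes were higher in Nan/+ than in wild type.

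In level in K1, the genes ran from Osgin1 through Srxn1 and Abcc2 to Gsta3, and the same order held in K1-ER, while in K1-NanER Srxn1 stood above Osgin1. In the authors' comparisons 4 of 4 were called lower (q, the p-value adjusted for multiple tests, of at most 0.05) in K1-ER, where 11.5% of listed genes were lower and 37.9% higher. In K1-NanER 4 of 4 were called lower, where 28.3% of listed genes were lower and 47.4% higher. These are shares of genes already called in at least 1 comparison, not of all genes tested. These are the contrasts by which the genes were chosen, so nothing is read from the counts. Both comparisons use the same K1 libraries, so a high value in K1 would lower a gene in both. The deposited q was 0.00213 for Osgin1, Srxn1 and Gsta3 in both comparisons, the smallest the table holds; for Abcc2 the authors' deposited table gave 0.0187 for K1-ER and 0.0372 for K1-NanER.

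The genes whose pair of fold changes was most like that of a member were of varied kind. Likeness was the Euclidean distance between the log2 fold changes of K1-ER and K1-NanER over K1, thus over 3 groups; genes at the floor in any of these groups were left out as neighbours of Osgin1, Srxn1 and Abcc2 and kept for Gsta3, which is at the floor itself. For Abcc2 the nearest of the genes above the floor was Gja1, the gap junction protein connexin 43, at a distance of 0.406, with 0.687 FPKM in K1-ER, 0.828 FPKM in K1-NanER and 14.7 FPKM in parental cells, in the authors' deposited table. For Srxn1 it was Amacr, a racemase of branched-chain fatty acid breakdown, at 0.506, with 0.581 FPKM with KLF1-ER, 0.947 FPKM with Nan-KLF1-ER and 7.81 FPKM in the parental line, in the authors' deposited table. For Osgin1 it was Terc, the RNA component of telomerase, at 0.804, with 19.6 FPKM in K1-ER cells, 6.78 FPKM in K1-NanER cells and 94.6 FPKM in parental K1 cells, in the authors' deposited table; its fall passed the authors' test in K1-ER only (q = 0.0532 in K1-NanER). Among genes above the floor, next came Amacr and Abcc2 for Osgin1, Dnajc6 and Gja1 for Srxn1, and Osgin1 and Amacr for Abcc2. The fall of Dnajc6 passed the authors' test in K1-NanER only (q = 0.581 in K1-ER). The neighbours of Gsta3 were 1700026L06Rik, Ccr8 and 4930502E18Rik, which were at the floor in both lines too, so that their nearness to Gsta3 reflects only their level in K1.

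Some other targets of NRF2 were called lower as well, while most of those listed have no row. A list of 48 such genes, written for this purpose with results of these data known, holds the 4 members. Of the other 44, 11 have a row in the 4sU table, and 6 were called lower and 0 higher in K1-ER, and 10 lower and 0 higher in K1-NanER. The rest, among them the well-known targets Gclc, Gclm, Txnrd1 and G6pdx, have no row there and were not analysed. The median log2 fold change of these called genes was -1.51 in K1-ER and -1.72 in K1-NanER, beside -1.51 in K1-ER and -1.40 in K1-NanER for all genes of the table called lower. Lower genes made up 23.3% of all genes called for K1-ER and 37.4% of those called for K1-NanER. The called log2 fold changes of the other list genes had sizes of 1.24 to 2.09 in K1-ER and 0.953 to 2.38 in K1-NanER, each smaller than those of Osgin1, Srxn1 and Abcc2, which had been chosen for their large falls.

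Among these list genes the quinone reductase Nqo1, a standard readout of NRF2, came closest to the members. It fell in both lines, with 4.28 FPKM in K1-ER, 3.50 FPKM in K1-NanER and 18.2 FPKM in parental cells, in the authors' deposited table. Slc7a11, the cystine importer that feeds glutathione synthesis, fell in both lines, with 1.01 FPKM with KLF1-ER, 1.04 FPKM with Nan-KLF1-ER and 3.04 FPKM in the parental line, in the authors' deposited table. The pentose phosphate enzymes Pgd and Taldo1, which serve NADPH supply, also fell in both lines. Taldo1 stood at 32.4 FPKM in K1-ER cells, 26.5 FPKM in K1-NanER cells and 107 FPKM in parental K1 cells, per the authors' deposited table. Pgd stood at 38.1 FPKM with KLF1-ER, 27.1 FPKM with Nan-KLF1-ER and 90.2 FPKM in the parental line, per the authors' deposited table. Ptgr1, a reductase of reactive lipid aldehydes and ketones, fell in both lines, with 25.3 FPKM in K1-ER, 17.9 FPKM in K1-NanER and 68.3 FPKM in parental cells, in the authors' deposited table.

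Gsr, which reduces oxidised glutathione, passed the authors' test in K1-ER alone, at 41.1 FPKM with KLF1-ER, 57.8 FPKM with Nan-KLF1-ER and 104 FPKM in the parental line, in the authors' deposited table. Txn1 (thioredoxin), Blvrb (an NADPH-dependent flavin and biliverdin reductase), Ftl1 (ferritin light chain), Tkt and Slc6a9 passed it in K1-NanER alone. For thioredoxin the authors' deposited table gave 27.0 FPKM in K1-ER cells, 11.5 FPKM in K1-NanER cells and 39.0 FPKM in parental K1 cells. Whether the lines differ in these genes was not tested.

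**Figure D2:**
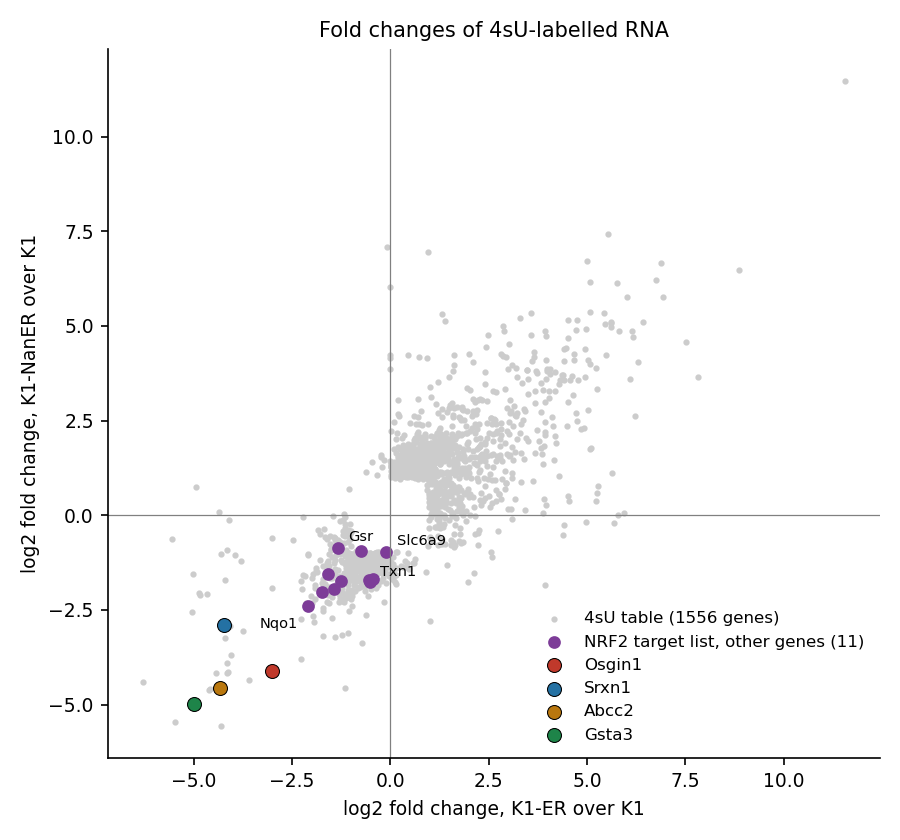
Deposited log2 fold changes of 4sU RNA, K1-ER over K1 on the x axis and K1-NanER over K1 on the y axis, for the 1556 listed genes (grey), the 11 other genes of the NRF2 target list (purple) and the 4 members (coloured). The members lie at the far lower left, below and left of all 11 other list genes; the place of Gsta3 is set by the floor, and the 2 axes share the K1 libraries.

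No regulator of the pathway that the table lists was called lower. Of 18 listed regulators, 4 have a row in the 4sU table, and 3 were called higher in K1-ER and 2 in K1-NanER, with 0 lower. Among all listed genes, 37.9% were called higher and 11.5% lower in K1-ER. In K1-NanER 47.4% were called higher and 28.3% lower. With only 4 regulators listed, nothing is read from these counts. Nfe2, the large subunit of NF-E2, rose in both lines, with 148 FPKM in K1-ER, 30.5 FPKM in K1-NanER and 8.07 FPKM in parental cells, in the authors' deposited table. Mafk, a small MAF partner of NRF2 and of NF-E2, was called higher in K1-ER only and stood at 423 FPKM with KLF1-ER, 117 FPKM with Nan-KLF1-ER and 118 FPKM in the parental line, in the authors' deposited table. Nfe2l1, a relative of NRF2, was likewise called in K1-ER only, at 99.3 FPKM in K1-ER cells, 56.5 FPKM in K1-NanER cells and 33.7 FPKM in parental K1 cells, in the authors' deposited table. Cul3, the ubiquitin ligase scaffold that works with KEAP1, was called in K1-NanER only, at 12.1 FPKM in K1-ER, 31.1 FPKM in K1-NanER and 10.5 FPKM in parental cells, in the authors' deposited table. Nfe2l2, Keap1, Bach1 and Bach2 have no row in the 4sU table, which lists only genes called in at least 1 comparison, and were not analysed here. Of 11 erythroid markers, 5 have a row, and 5 were called higher in K1-ER and 2, Alas2 and Tfrc, in K1-NanER. The summed level of the 5 was 619 FPKM with KLF1-ER, 280 FPKM with Nan-KLF1-ER and 158 FPKM in the parental line. Epor alone gave most of this sum with KLF1-ER (485 FPKM) and in the parental line (129 FPKM). Tfrc stood at 112 FPKM with Nan-KLF1-ER and 21.1 FPKM in the parental line. The sum thus mainly reflects these 2 genes. Epor, Slc4a1 and Ahsp were not called in K1-NanER. There Epor stood at 139 FPKM against 129 FPKM in the parental line, and Slc4a1 at 1.43 FPKM against 2.00 FPKM. Of the 5, Ahsp was at the floor in K1. The part of this shift in the falls was not tested.

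Binding at the members was listed once. Nan-KLF1 had a peak at the promoter of Osgin1, at chr8:121960801-121961200 in mm9, with its summit 28 bases before the first base of the gene's locus. Its fold enrichment of ChIP over input, a value of the authors, was 97.5, below the median of 107 over the 2758 peaks of that list; 1553 of them were higher. Its central motif was CCCTGCCC, which the authors give to 13.0% of Nan-KLF1 peaks and 3.40% of KLF1 peaks, or to 7.14% of Nan-KLF1 and 2.43% of KLF1 promoter peaks. In the Osgin1 promoter printed above these letters stand 43 to 36 bases before the start, on the plus strand; they are in 5.19% of all promoter windows and, on the minus strand, also in that of Abcc2. They too were searched after the sequences had been seen. The RefSeq start used there lies 9111 bases before the end of the gene in GRCm38, while the authors' locus in mm9 spans 9095 bases, and no position was carried from one build to the other.

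No KLF1 peak had Osgin1 as its nearest gene, and the peak at Osgin1 overlapped none of the 5326 peaks of the KLF1 list. The nearest KLF1 summit to Osgin1 lay 42.6 kb away, in an intron of Slc38a8. Neither list held a peak with Srxn1, Abcc2 or Gsta3 as its nearest gene. Around Srxn1 the nearest summits were 222 kb away for Nan-KLF1, at the promoter of Rbck1, and 115 kb away for KLF1, at that of Csnk2a1. Around Abcc2 they were 22.9 kb away for Nan-KLF1, in an intron of Cutc, and 70.3 kb away for KLF1, in an intron of Entpd7. Around Gsta3 they were 123 kb away for Nan-KLF1 and 2.13 Mb away for KLF1. Each factor has 1 library, so these distances have no replicate check.

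A lack of peaks is common among genes that fell. Of all genes called lower in K1-ER, 17.9% (32 of 179) had a KLF1 peak named for them, against 71.1% of the 589 called higher. Of those called lower in K1-NanER, 12.5% (55 of 441) had a Nan-KLF1 peak, against 31.5% of the 737 called higher. The members, with 0 of 4 for KLF1 and 1 of 4 for Nan-KLF1, are too few to be set against these shares. Of the 15 genes of the NRF2 target list in the 4sU table, 4 had a Nan-KLF1 peak, at the promoter in each case, and 7 had a KLF1 peak; beside Osgin1, Nqo1 had a promoter peak of Nan-KLF1, with a fold enrichment of 127, and none of KLF1. Nfe2 had 2 peaks of Nan-KLF1 and 3 of KLF1.

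**Figure D3:**
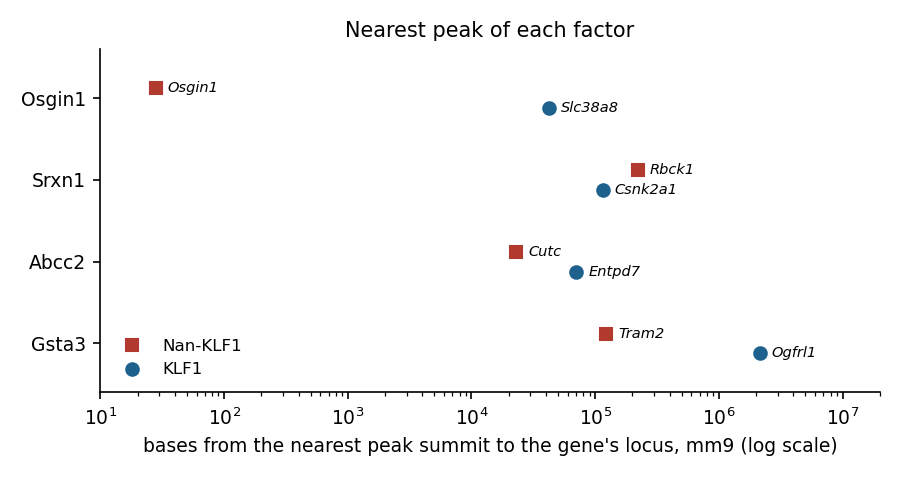
Distance in bases, on a log axis, from the summit of the nearest Nan-KLF1 peak (red squares) and the nearest KLF1 peak (blue circles) to the locus of each member in mm9; the label gives the gene the authors name for that peak. The Nan-KLF1 peak of Osgin1, at 28 bases, is the 1 point under 20 kb.

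Few genes near the members were listed in the 4sU table. All listed genes within 500 kb were taken, a choice made after the values were seen. Zcchc3, 301 kb from Srxn1, was also called lower in both lines, at 4.79 FPKM in K1-ER cells, 28.7 FPKM in K1-NanER cells and 66.6 FPKM in parental K1 cells, in the authors' deposited table. Trib3 and Rbck1, 226 and 205 kb from Srxn1, were called lower in K1-NanER only, as were Taf1c and Usp10 near Osgin1. Scd2, 455 kb from Abcc2, was called higher in both lines, and Gsta3 had no listed neighbour.

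In fetal liver Srxn1 and Gsta3 were higher in Nan/+ than in wild type, a contrast in which no group lacks KLF1. Between the 2 cell lines, Srxn1 was 2.54 times as high in K1-NanER as in K1-ER, which was not tested. Gsta3 was at the floor in both lines. Srxn1 stood at 32.9 FPKM in Nan/+ livers and 12.3 FPKM in wild-type livers, 2.67-fold higher (log2 fold change 1.42, q = 0.00244), in the authors' deposited table. Gsta3 stood at 46.7 FPKM in Nan/+ livers and 21.2 FPKM in wild-type livers, 2.20-fold higher (log2 fold change 1.14, q = 0.0154), in the authors' deposited table. Both thus rose in the mutant. Osgin1 and Abcc2 have no row in the liver table, which lists only genes with a called change, and were not analysed there. Of the genes in that table, 75.4% were higher and 24.6% lower, so a count of 2 higher of 2 listed is near the background. Of the 100 genes called lower in both cell lines, 5 have a row in the liver table; 4 were higher in Nan/+ and 1 was lower, and Srxn1 and Gsta3 are among the 4. The systems differ in more than the factor: the cell lines were set against cells without KLF1, while Nan/+ livers have a wild-type allele beside the Nan allele, and the liver libraries hold all polyadenylated RNA and not newly made RNA alone.

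In liver the share of listed NRF2 targets that were higher was near that of the whole table. Of its 48 genes, 6 have a row, with 5 higher and 1 lower; without Srxn1 and Gsta3 these are 3 higher and 1 lower, beside 75.4% higher among all genes of that table. Hmox1, which breaks down heme, stood at 214 FPKM in Nan/+ livers and 63.9 FPKM in wild-type livers, per the authors' deposited table. The microsomal transferases went opposite ways: Mgst2 was at 35.1 FPKM in Nan/+ livers and 13.6 FPKM in wild-type livers, while Mgst3 was at 149 FPKM in Nan/+ livers and 354 FPKM in wild-type livers, per the authors' deposited table. Akr1b8, an aldo-keto reductase, was at 14.1 FPKM in Nan/+ livers and 6.91 FPKM in wild-type livers, per the authors' deposited table. Srxn1 and Gsta3 are the only genes of the list with a row in both tables.

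Markers of other cell types also changed in liver. All 7 granulocyte markers were called higher, with a summed level of 2511 FPKM in Nan/+ livers and 425 FPKM in wild-type livers. Of 7 macrophage markers 3 were called higher, summing to 155 FPKM in Nan/+ and 65.7 FPKM in wild type, and of 6 megakaryocyte markers 2 were called higher, summing to 635 FPKM in Nan/+ and 250 FPKM in wild type. Most of the megakaryocyte sum was Pf4, at 622 FPKM in Nan/+ and 245 FPKM in wild type. The other markers of these 2 types have no row. Of all genes listed in liver, 75.4% were higher and 24.6% lower, so the macrophage and megakaryocyte counts are near the background. Of 7 muscle markers 6 were called lower, summing to 1.75 FPKM in Nan/+ and 43.5 FPKM in wild type. Apart from cell types, Xist, the RNA that marks the inactive X chromosome of female cells, was at 0.0400 FPKM in Nan/+ livers and 25.1 FPKM in wild-type livers, per the authors' deposited table. The sex of the embryos is not given in the sources used here, so the 2 groups may differ in sex. Effects of sex and of genotype then cannot be told apart. None of the 11 erythroid, 10 hepatocyte or 5 endothelial markers has a row in the liver table. The part of these shifts in the rise of Srxn1 and Gsta3 was not tested, and in whole liver a change in the number of cells of a type and a change in RNA per cell cannot be told apart.

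**Figure D4:**
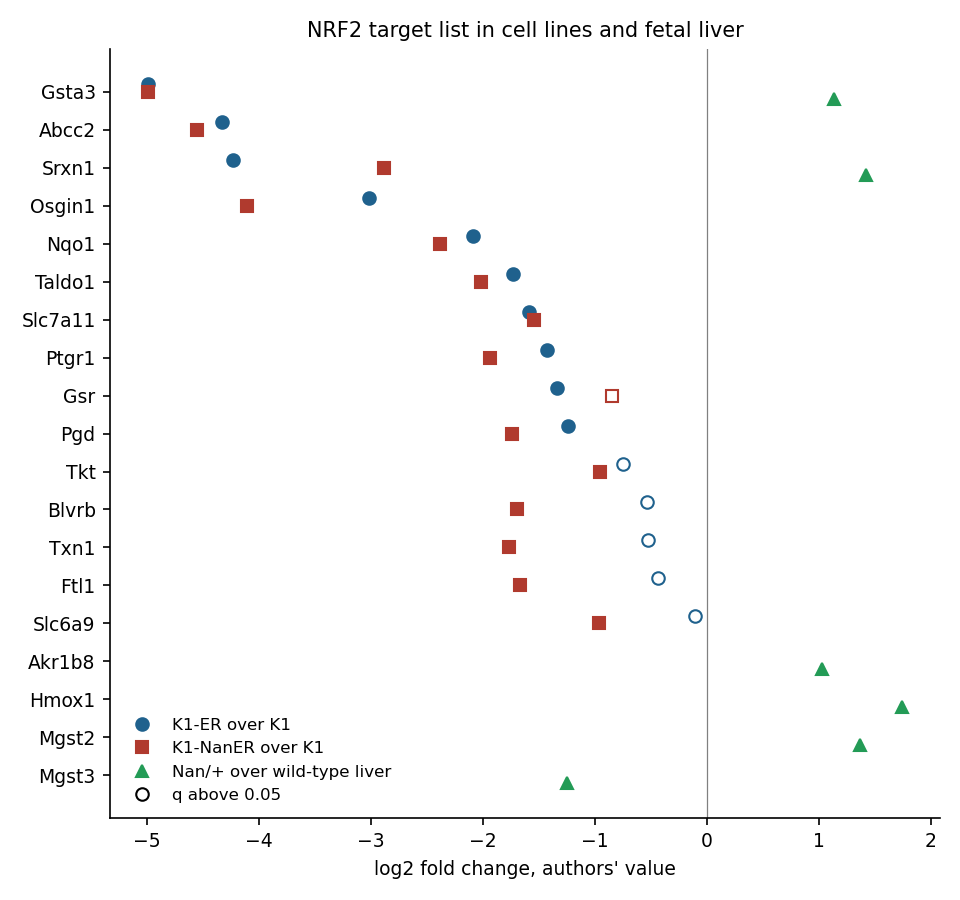
Deposited log2 fold changes of the 19 genes of the NRF2 target list that have a row in a table, for K1-ER over K1 (blue circles), K1-NanER over K1 (red squares) and Nan/+ over wild-type liver (green triangles); open symbols did not pass q of 0.05. All cell-line points lie below 0, and 5 of 6 liver points lie above 0, among them those of Srxn1 and Gsta3.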

How the data were processed

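The files were the authors' deposited tables: 1 of 4sU RNA, 1 of fetal liver RNA and 1 annotated peak list per factor. Per the submitters' processing notes, TopHat2 2.0.10, MACS 1.4.2 and build mm9 were used; the program behind levels and tests is not given in the sources used here. FPKM, log2 fold changes, p-values and q values are the authors' deposited values, 1 per group or comparison. Fold enrichment, a deposited ratio, and peak rank, a deposited score, are each peak's own. A gene was called at q of at most 0.05. Both expression tables list called genes only, so percentages called are of listed genes, not of genes tested. No model was fitted.

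Members and lists were chosen with earlier results of these data known. Named genes were the members, list genes called in a comparison, and the 3 genes nearest each member in fold changes. Locus starts are printed 1 higher than deposited. Peak distances run from the summit to the nearest locus edge; peaks overlapped at 1 bp or more. The limit for a peak's nearest gene was the authors' 300 kb. Motifs were searched in RefSeq windows on both strands with Python 3.11.15 and pandas 2.3.3, and the search was tested on simulated sequences. The labels do not state whether liver libraries of a group came from separate litters, or K1 libraries from separate cultures, so the authors' p-values may measure technical spread. The depth per sample is unknown.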

Additional observations from a re-analysis of the deposited data

How the results depend on the processing

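No paired analysis was possible because the deposited columns hold 1 value per group, which also kept any replicate from being left out. With q of at most 0.01 in place of 0.05, Abcc2 lost its call in both cell lines and Gsta3 its call in liver, so that 3 of 4 members kept a call in each line and 1 and not 2 was called higher in liver. In the NRF2 target list, 9 and not 14 genes were then lower in K1-NanER, and in liver 2 and not 5 were higher and 0 and not 1 lower; in K1-ER 7 of the 10 remained, with 0 higher in either line at both thresholds. Genes of the whole table fell from 179 to 82 lower and from 589 to 380 higher in K1-ER, from 441 to 199 and from 737 to 439 in K1-NanER, and from 195 to 97 and from 598 to 280 in liver. A minimum of 1 FPKM in whichever group was higher left every count of members and of the NRF2 target list as it was. It also left the counts of the whole tables unchanged, so it removed no called gene and could not have altered the others. A pseudocount of 1 kept each member's sign but moved Abcc2 in K1-ER to -2.53 and Gsta3 to -1.93 in each line, since low levels shrink most. Keeping only peaks above the median fold enrichment left 0 in place of 1 Nan-KLF1 peak at a member; the limit of 50 kb left it. On the gene's strand alone, TGAGTCAGC was in 1 window, CCNCNCCC in 0 and CCCTGCCC in 1. A search for TGANNNNGC, chosen after seeing the data, found it in all 4 windows, and 41.3% of all windows hold it. The depth is unknown, so a gene at the floor is not shown to be silent.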

Other observations

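The other redox lists were counted without the 4 members, and few of their genes have a row in the 4sU table. Genes without a row were not analysed here. Among all genes of that table, 11.5% were called lower and 37.9% higher in K1-ER, while for K1-NanER 28.3% were lower and 47.4% higher. Of 36 peroxiredoxin, thioredoxin, catalase and superoxide dismutase genes, 4 have a row, with 3 called higher and 0 lower in K1-ER, and 2 higher and 1 lower in K1-NanER. Prdx2, the main peroxiredoxin of red cells, was called higher in K1-ER only, at 316 FPKM in K1-ER, 157 FPKM in K1-NanER and 128 FPKM in parental cells, in the authors' deposited table. Sesn1, a p53 target that protects against peroxide, rose in both lines, with 12.2 FPKM with KLF1-ER, 20.2 FPKM with Nan-KLF1-ER and 3.54 FPKM in the parental line, in the authors' deposited table. Gpx1, the glutathione peroxidase of red cells, stood at 284 FPKM in K1-ER cells, 20.5 FPKM in K1-NanER cells and 141 FPKM in parental K1 cells, in the authors' deposited table, and passed the authors' test in K1-NanER only (q = 0.0504 in K1-ER). Of 51 genes of glutathione metabolism, 6 have a row, with 2 higher and 2 lower in K1-ER, and 0 higher and 3 lower in K1-NanER. Both lower genes of K1-ER, Gsr and Slc7a11, are also in the NRF2 target list. Of 23 genes of NADPH supply, 7 have a row, with 1 higher and 3 lower in K1-ER, and 1 higher and 5 lower in K1-NanER. Pgd, Taldo1 and Tkt, among those that fell, are in the NRF2 target list too; the 1 that rose in both was Rpia, an isomerase of the pentose phosphate pathway.

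The efflux pump list, which also holds Slco carriers, has 31 genes other than Abcc2, and 5 of them have a row. In K1-ER 3 were higher and 1 lower, and in K1-NanER 0 were higher and 2 lower. Abcb10, a mitochondrial transporter needed for heme synthesis, was at 364 FPKM in K1-ER, 222 FPKM in K1-NanER and 104 FPKM in parental cells, in the authors' deposited table, and was called in K1-ER only. Of 58 phase 1 and 2 enzymes, 6 have a row, with 2 higher and 2 lower in K1-ER, and 1 higher and 4 lower in K1-NanER; Nqo1, lower in both, is in the NRF2 target list. In the liver table, where 75.4% of genes were higher, 5 genes of the list of peroxiredoxin, thioredoxin, catalase and superoxide dismutase genes were higher and 0 lower, among them Sod1, which the authors' deposited table gives 2990 FPKM in Nan/+ livers and 613 FPKM in wild-type livers. In liver 3 genes of glutathione metabolism were higher and 2 lower, and of NADPH supply 1 was higher. There, 1 gene of the efflux pump list was higher, the carrier Slco2b1, and 1 was lower, the transporter Abcg4. Among enzymes of phases 1 and 2, 2 were higher and 0 lower.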
